A study of Mus musculus with 12 samples.

Results

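Sertoli cell marker genes were followed through 12 mouse libraries made from male germ cells, in which Sertoli cells are not the labelled cell type. The set held 9 genes: Clu, Aard, Sox9, Wt1, Amh, Gata4, Inha, Dhh and Cldn11. They were chosen by name, with a rule that uses no measured value, but with earlier results of these data known. They were 9 of the 31685 genes that the deposited gene lists share. The 12 libraries formed 6 groups of 2, and were made by SC3-seq, which amplifies cDNA from little RNA and reads only its 3' ends.

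Testis germ cells were taken before birth, on embryonic days 16 and 17 (E16, E17), and after it, on day 7 (P7), all from mice labelled Vasa-RFPTg/0, which carry a red fluorescent transgene named for Vasa (Ddx4), a germ cell gene. Cultured spermatogonial stem cells, called germline stem cells (GSCs), came from a line that carries Acrosin-EGFP and beta-Actin-EGFP, and were of Stag3 KO line 1 (KO1), Stag3 KO line 2 (KO2) or WT genotype. Stag3 encodes a cohesin subunit of meiotic cells, and the series compared cells with and without it. The labels do not say whether a KO line is 1 clone, what was deleted, whether the 2 libraries of a group came from separate animals or cultures, or how the testis cells were sorted. The p-values therefore measure the spread between these libraries, which may be technical.

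Sertoli cells are the somatic cells of the seminiferous tubule that surround and nourish the germ cells. Their fate is set in the fetal gonad by SRY and then SOX9, and they signal to germ cells, to Leydig cells and to the peritubular myoid cells around the tubule. In a sorted germ cell library their transcripts can come from Sertoli cells that were sorted along, from free RNA, or from the germ cells, and these sources cannot be told apart in bulk RNA. Likewise, fewer Sertoli cells and less RNA per Sertoli cell cannot be told apart.

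The libraries held 1938644 to 4596607 counts each, and 3 counts, the limit that a count of 0 allows, corresponded to 0.748 to 1.73 RPM. RPM (reads per 1000000) are counts per 1000000 counts of non-mitochondrial genes, and intervals and limits cover counting error only. Stag3 itself stood at 295 and 304 RPM in KO1, at 137 and 152 RPM in KO2, and at 385 and 420 RPM in WT GSCs. All 4 KO libraries were below both WT libraries, and since the deleted part is not given, the remaining counts do not check the label further. The 8 germ cell genes examined (among them Ddx4, Dazl and Mael) summed to 2921 to 3758 RPM in the 12 libraries, so germ cell transcripts were high in every library.

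No member overlapped another gene in the RefSeq table of GRCm38.p6. Sox9 lies on chromosome 11 (112782210 to 112787757), Wt1 on chromosome 2 (105126529 to 105173614) and Gata4 on chromosome 14 (63198914 to 63271712). Amh lies on chromosome 10 (80805240 to 80807679), Inha on chromosome 1 (75507077 to 75510366), Dhh on chromosome 15 (98881615 to 98898562) and Cldn11 on chromosome 3 (31149920 to 31164326). Clu lies on chromosome 14 (65968483 to 65981548) and Aard on chromosome 15 (52040107 to 52045722). Wt1os, an antisense gene, ends next to the start of Wt1, and no source gives the strand setting, so reads of the pair could be mixed at that end. The 3' end of Wt1, which these libraries read, lies at the other end of its span.

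Promoters of 3 of the 9 members, Inha, Dhh and Cldn11, were found among the RefSeq promoter windows, which run from 250 bases before to 50 bases after an annotated start. The window of Inha lies inside the gene's span, downstream of its outermost start, and is not considered further. The windows of Dhh (chr15:98898491-98898790, minus strand) and Cldn11 (chr3:31149670-31149969, plus strand) are shown because these genes were at or near 0 in GSCs and counted in every testis library. They are written 5' to 3' on the gene's strand, in lower case, since capitals were kept for motif matches and there were none.
Dhh: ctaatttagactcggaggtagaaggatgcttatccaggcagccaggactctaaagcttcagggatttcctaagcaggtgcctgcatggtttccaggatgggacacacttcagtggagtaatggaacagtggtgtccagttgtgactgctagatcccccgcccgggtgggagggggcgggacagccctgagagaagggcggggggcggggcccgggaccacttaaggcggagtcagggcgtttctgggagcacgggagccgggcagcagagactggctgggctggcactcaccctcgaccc
Cldn11: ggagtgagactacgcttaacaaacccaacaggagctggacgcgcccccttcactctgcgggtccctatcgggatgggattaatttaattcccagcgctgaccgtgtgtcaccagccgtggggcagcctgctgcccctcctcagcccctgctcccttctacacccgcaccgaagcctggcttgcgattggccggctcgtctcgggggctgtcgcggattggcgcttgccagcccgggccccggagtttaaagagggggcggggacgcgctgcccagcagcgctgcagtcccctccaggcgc
The motifs searched on both strands were AACAAT and ACAAAG of SOX factors, AAGGTCA of NR5A1, and AGATAA and TGATAA of GATA factors, which share their last 5 letters. None of the 5 was in the windows of Dhh and Cldn11, which says only that these letters are not there. Among all 32851 windows of the same length, AACAAT was in 10.7%, ACAAAG in 18.7%, AAGGTCA in 4.72%, AGATAA in 11.2% and TGATAA in 9.05%.

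Of the transcription factors, Sox9, which drives Sertoli cell fate, was low throughout. It had 3.98 and 5.28 RPM at E16, 4.05 and 5.23 RPM at E17, and 9.54 and 6.49 RPM at P7. In GSCs it had 8.53 and 8.38 RPM in KO1, 2.97 and 2.77 RPM in KO2, and 1.63 and 2.74 RPM in WT. KO1 and P7 libraries were the highest and overlapped each other, and E16 and E17 overlapped each other.

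Wt1, a zinc finger factor that the Sertoli cell needs to keep its identity, ran the other way. It had 4.47 and 4.58 RPM at E16, 7.51 and 6.28 RPM at E17, and 5.92 and 8.35 RPM at P7. It had 10.9 and 15.4 RPM in KO1, 7.56 and 3.61 RPM in KO2, and 16.1 and 12.7 RPM in WT. WT and KO1 libraries overlapped and were above all 8 others, so that Wt1 was highest in cultured cells. Gata4, a zinc finger factor of the somatic cells of the gonad, had 9.44 and 7.39 RPM at E16, 10.98 and 6.80 RPM at E17, and 2.96 and 5.56 RPM at P7. In GSCs it had 5 and 1 counts in KO1, 2 and 0 counts in KO2, and 1 and 8 counts in WT, so most GSC libraries were at or near the limit of detection.

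Of the hormones, Amh, which makes the Müllerian duct regress in males and is a classic product of the fetal Sertoli cell, had 0 counts in all 12 libraries, which allows up to 0.748 to 1.73 RPM if its 3' end was counted. The sources used here do not show whether the counting covered that end. Inha, the alpha subunit of inhibin, which restrains follicle-stimulating hormone, had 10.4 and 8.45 RPM at E16, 20.8 and 24.6 RPM at E17, and 4.60 and 8.66 RPM at P7. It had 3.53 and 5.94 RPM in KO1, 4.86 and 5.83 RPM in KO2, and 6.53 and 4.24 RPM in WT. Both E17 libraries stood above all others, and P7 overlapped E16 and the GSC groups.

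Dhh, the hedgehog ligand that Sertoli cells send to Leydig and peritubular cells, had 7.45 and 5.98 RPM at E16, 4.05 and 5.23 RPM at E17, and 1.97 and 2.47 RPM at P7. It had 1 and 1 counts in KO1, 0 and 1 counts in KO2, and 0 and 0 counts in WT. Its 3 stages did not overlap. Cldn11, a claudin of the tight junctions between Sertoli cells, had 5.47 and 3.17 RPM at E16, 4.05 and 7.33 RPM at E17, and 2.96 and 4.95 RPM at P7. It had 1 and 2 counts in KO1, 5 and 3 counts in KO2, and 0 and 3 counts in WT. The stages overlapped, and all 6 testis libraries were above all 6 GSC libraries.

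Clu, clusterin, a secreted chaperone abundant in Sertoli cell fluid, spanned the widest range. It had 109.8 and 96.8 RPM at E16, 83.8 and 96.8 RPM at E17, and 23.0 and 41.4 RPM at P7. It had 7.36 and 6.63 RPM in KO1, 5.67 and 5.55 RPM in KO2, and 1.63 and 1.495 RPM in WT. The WT values rest on 6 and 6 counts, so folds of Clu against WT rest on few counts. E16 and E17 overlapped, and otherwise the groups followed one another without overlap in the order E16, E17, P7, KO1, KO2, WT. Aard, a gene named for an alanine and arginine rich domain, had 17.9 and 9.15 RPM at E16, 23.1 and 17.3 RPM at E17, and 15.8 and 23.5 RPM at P7. It had 31.5 and 25.1 RPM in KO1, 20.2 and 29.4 RPM in KO2, and 6.81 and 12.7 RPM in WT, so the KO groups had the highest means, WT the lowest, and each neighbouring pair of groups in the order of the means overlapped.

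**Figure D1:**
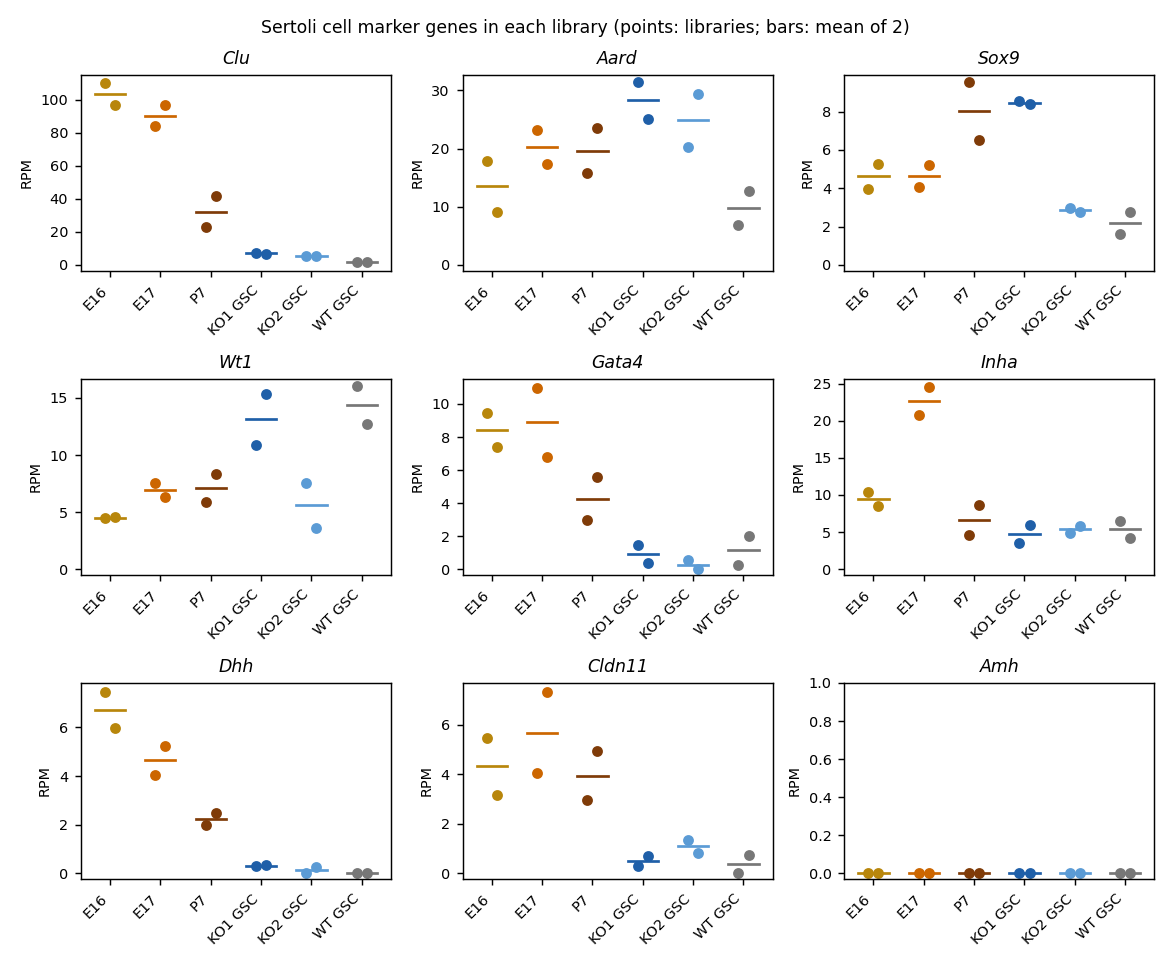
Level of each of the 9 genes in RPM (y axes, linear, a scale per panel) in the 6 groups (x axes). Points are libraries and horizontal bars the mean of 2; Clu, Dhh, Gata4 and Cldn11 are high in the testis groups, Wt1 is highest in KO1 and WT GSCs, Aard has its lowest mean in WT GSCs, and Amh is at 0 in all 12 libraries.

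The members differed in how much each contributed to the counts of the set. Clu held 65.0% and 68.8% of the members' counts at E16, 52.9% and 57.1% at E17, and 34.5% and 40.9% at P7. It held 11.5% (95% Wilson interval 7.93% to 16.5%) and 10.6% in KO1, 13.1% and 11.5% in KO2, and 4.96% (2.29% to 10.4%) and 4.08% in WT. Wt1 held 2.65% and 3.25% at E16 but 48.8% (40.0% to 57.6%) and 34.7% (27.5% to 42.7%) in the WT GSCs. Aard held 40.0% to 60.9% in the 4 KO libraries, against 20.7% and 34.7% in WT. The same list of markers thus named different genes in each setting. The shares are of counts, with no correction for gene length, since only 3' ends were read.

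**Figure D2:**
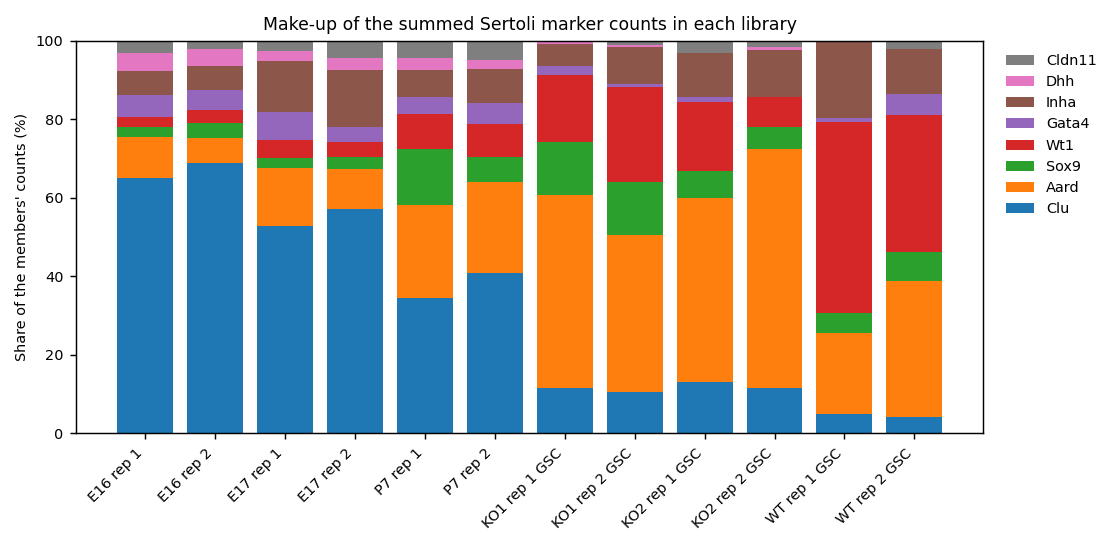
Share of the summed counts of the members (y axis, percent) held by each gene in each of the 12 libraries (x axis). Clu, at the bottom of each bar, holds at most 40.9% at P7 and at most 13.1% in GSCs, where Aard and Wt1 hold most of the counts. Amh has no counts and no segment.

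Summed over the 9 genes, the level was 169.0 and 140.8 RPM at E16, 158 and 169.6 RPM at E17, and 66.8 and 101.4 RPM at P7. It was 63.9 and 62.8 RPM in KO1, 43.2 and 48.3 RPM in KO2, and 32.9 and 36.6 RPM in WT. The KO1 and KO2 libraries were above the WT libraries, and all testis libraries were above all GSC libraries.

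A second list of 24 Sertoli cell genes, of which 23 were found (Rhox5 was not analysed here), was set beside the members. Its sum was 208 and 222 RPM at E16, 279 and 269.5 RPM at E17, and 89.4 and 130.1 RPM at P7. It was 35.6 and 43.6 RPM in KO1, 37.8 and 46.1 RPM in KO2, and 39.8 and 28.2 RPM in WT, so KO and WT libraries overlapped. Of the 23 genes, 18 had a count in all 4 fetal libraries and 19 in both P7 libraries. In the 6 GSC libraries 10 of the 23 had no count at all, among them the Sertoli cell products Cst9, Cst12, Defb19 and Ptgds. These 4 had 4.97 to 46.7 RPM in the fetal libraries. In GSCs the transferrin gene Trf, which many cell types express, had 25.9 and 21.7 RPM in KO1, 27.3 and 37.5 RPM in KO2, and 22.1 and 15.9 RPM in WT.

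The peritubular, Leydig, endothelial, macrophage and erythroid sums were, like the members' sum, lower in both P7 libraries than in all 4 fetal libraries, and the interstitial fibroblast and pregranulosa sums were not. The erythroid sum was also lower in both E17 than in both E16 libraries, which the members' sum was not. The sum of the 6 peritubular myoid genes was 123.7 and 123.2 RPM at E16, 162 and 167.5 RPM at E17, and 12.8 and 21.95 RPM at P7. The sum of the 7 Leydig cell genes was 32.3 and 32.4 RPM at E16 and 46.2 and 41.9 RPM at E17. At P7 it was 8.55 and 2.78 RPM over 6 genes, since Insl3 had no value there. Insl3, a defining Leydig cell product, was at 0 in all GSC, E16 and E17 libraries. The 6 endothelial genes summed to 36.6 to 38.8 RPM at E16, 59.1 to 60.7 RPM at E17 and 17.3 to 18.7 RPM at P7, and the 7 macrophage genes to 8.80 to 9.94, 10.98 to 15.2 and 0.987 to 1.86 RPM in the same order. The 8 erythroid genes, mainly globins, summed to 143 and 273 RPM at E16, 94.2 and 110.9 RPM at E17, and 12.5 and 82.5 RPM at P7. The 9 interstitial fibroblast genes summed to 132.7 and 109.1 RPM at E16, 263.5 and 244 RPM at E17, and 115 and 140.3 RPM at P7. In GSCs the Leydig, endothelial and macrophage sums were at most 9.78 RPM per library, 6 of the 7 Leydig genes and 4 of the 7 macrophage genes had no count, and the erythroid genes had 0 counts in all 4 KO libraries and 1 count in each WT library. The 4 genes of pregranulosa cells, the female counterpart of the Sertoli cell, summed to 68.1 and 41.9 RPM at E16, 85.5 and 85.8 RPM at E17, 88.8 and 103.5 RPM at P7, and 23.3 to 42.1 RPM in GSCs, with Foxl2, which defines the list, at 0 in all 12 libraries.

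**Figure D3:**
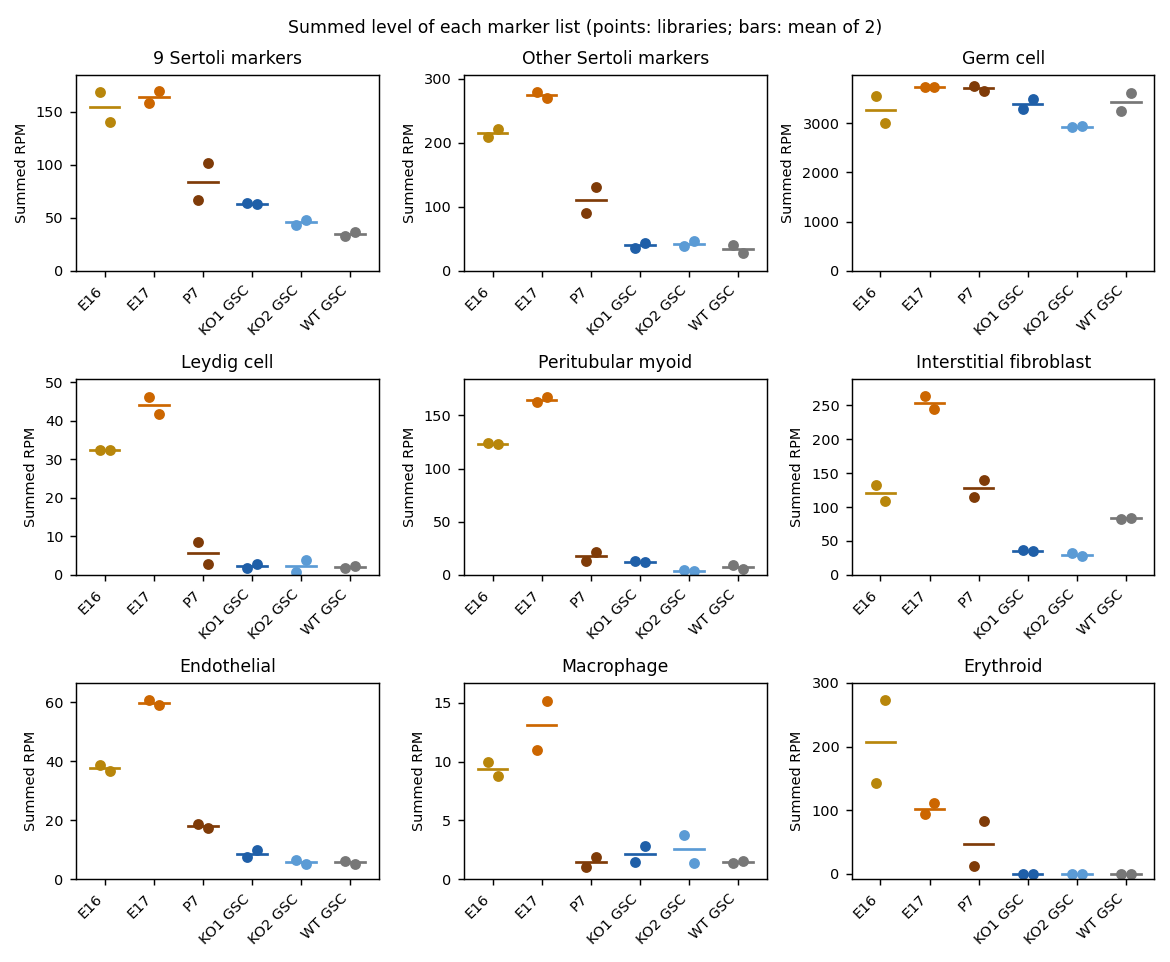
Summed RPM (y axes, a linear scale per panel) of the 9 Sertoli markers and of 8 other marker lists in the 6 groups (x axes); points are libraries and horizontal bars the mean of 2. The Sertoli, Leydig, myoid, endothelial and macrophage lists are high at E16 and E17, while the germ cell list lies between 2921 and 3758 RPM in every library.

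GSCs labelled Stag3 KO had more Clu and Aard and, in the mean of both lines, less Wt1 than WT GSCs. The comparison asks which genes depend on STAG3-cohesin in these cells. With the mean of both KO lines set against WT, Clu averaged 6.30 RPM in KO and 1.56 RPM in WT, a log2 fold change of 1.93 ± 0.51 (SE; edgeR quasi-likelihood test, adjusted p = 0.00312), and was higher in 4 of 4 KO libraries. Aard averaged 26.6 RPM in KO and 9.76 RPM in WT, a log2 fold change of 1.38 ± 0.23 (adjusted p = 1.92e-06), and was also higher in 4 of 4. Wt1 averaged 9.35 RPM in KO and 14.4 RPM in WT, a log2 fold change of -0.80 ± 0.27 (adjusted p = 0.0291), with overlapping libraries. Sox9 (1.10 ± 0.50, adjusted p = 0.110) and Inha (-0.15 ± 0.41, adjusted p = 0.846) did not pass. Thus 2 of the 5 members tested were called higher and 1 lower, where 8.64% of all 11890 genes were called higher and 10.6% lower. Clu and Sox9 passed the filter on low counts only through KO libraries, where they are higher. In WT libraries Clu had 6 and 6 counts and Sox9 had 6 and 11 counts. Nothing is therefore read from the number of members called higher. With no filter, Clu was at 1.93 (edgeR, adjusted p = 0.00101) and Sox9 at 1.10 (adjusted p = 0.113). Amh, Gata4, Dhh and Cldn11 were below the filter on low counts and were not tested. The median log2 fold change was 1.10, the value of Sox9, over the 5 tested members and 0.00 over all tested genes. The limit given for Clu and Sox9 holds for this median too, and nothing is read from it.

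The Clu and Aard calls held without each library in turn, with adjusted p-values of at most 0.0366 for Clu and 0.00165 for Aard. The Wt1 call did not: the adjusted p was 0.246 without WT replicate 1, 0.109 without KO1 replicate 1 and 0.165 without KO2 replicate 2, 0.190 with DESeq2 and 0.110 with all 12 libraries in the fit.

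Taken singly, the lines gave different calls for Sox9 and Wt1. In KO1, 3 of the 5 tested members were called higher (6.24% of all genes were) and none lower (7.4%): Clu by 2.09 ± 0.56 (adjusted p = 0.00552), Aard by 1.48 ± 0.26 (adjusted p = 8.3e-06) and Sox9 by 1.87 ± 0.52 (adjusted p = 0.00808), all log2 fold changes with SE. In KO2, 2 were called higher (7.19%) and 1 lower (8.45%): Clu by 1.77 ± 0.57 (adjusted p = 0.0214), Aard by 1.28 ± 0.26 (adjusted p = 0.000111) and Wt1 by -1.40 ± 0.34 (adjusted p = 0.00156). Sox9 in KO2 (0.33 ± 0.60, adjusted p = 0.769) and Wt1 in KO1 (-0.19 ± 0.31, adjusted p = 0.750) did not pass. The limit from the filter on low counts, given above for Clu and Sox9, holds here too. Nothing is therefore read from the numbers called higher in KO1 and KO2. Inha was at -0.25 ± 0.49 in KO1 (adjusted p = 0.798) and -0.05 ± 0.47 in KO2 (adjusted p = 0.955). Set directly against each other, KO1 and KO2 gave no member past the threshold (0 of 5 by edgeR, 0 of 5 by DESeq2, 2 of 5 at an unadjusted p under 0.05; 0.833% of all genes were called, 0.547% higher and 0.286% lower), with Sox9 at 1.54 ± 0.51 (adjusted p = 0.183) and Wt1 at 1.21 ± 0.35 (adjusted p = 0.0859).

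Several of these calls were lost as libraries were left out, some with little change in the fold. Clu in KO2 stayed at 1.67 to 1.85 and had adjusted p-values of 0.0651 without WT replicate 1, 0.0948 without WT replicate 2, 0.124 without KO2 replicate 1, 0.109 without KO2 replicate 2 and 0.110 with DESeq2, and Clu in KO1 was at 2.01 with 0.0668 without KO1 replicate 1. Sox9 in KO1 was at 1.58 to 1.89 in the fits that lost it and had 0.0889 without WT replicate 1, 0.0777 without KO1 replicate 1, 0.0613 without KO1 replicate 2 and 0.0711 with DESeq2. Wt1 in KO2 was at -0.98 (adjusted p = 0.116) without KO2 replicate 2, and Wt1 in KO1 against KO2 passed at 1.84 (adjusted p = 0.0342) without KO2 replicate 1. The Aard calls held in both lines without any 1 library (adjusted p at most 0.0342).

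**Figure D4:**
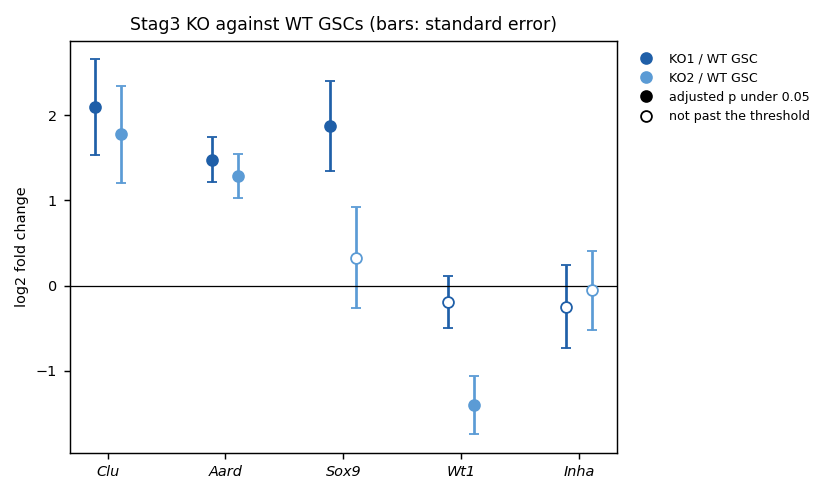
Log2 fold change (y axis) of the 5 members tested, KO1 and KO2 each against WT GSCs; bars are standard errors and filled points passed an adjusted p of 0.05. Clu and Aard are above 0 in both lines, Sox9 is filled in KO1 and Wt1 in KO2.

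Of the other Sertoli cell genes tested in GSCs, Trf rose in KO2 (0.72 ± 0.22, adjusted p = 0.0135), and Fgf9, a ligand that sustains Sox9 in the fetal gonad, was at 0.14 ± 0.50 in the mean of both lines (adjusted p = 0.887). The sum of the 9 interstitial fibroblast genes was 36.5 and 34.6 RPM in KO1, 32.4 and 27.5 RPM in KO2, and 81.7 and 84.5 RPM in WT. All 5 of those tested fell in the mean of both KO lines, beside 10.6% of all genes called lower. Among them were the collagen genes Col3a1 (log2 fold change -1.70, adjusted p = 2.24e-10) and Col1a2 (-1.71, adjusted p = 2.99e-07). Dcn, another of the 5, passed the filter on low counts only through WT libraries, where it is high. Nothing is therefore read from the number that fell. Acta2, the smooth muscle actin of peritubular cells, had 10.3 and 9.08 RPM in KO1, 1.08 and 0.277 RPM in KO2, and 6.26 and 3.74 RPM in WT, and fell in KO2 (-2.85, adjusted p = 0.00127). Of the 8 germ cell genes 6 fell in the mean of both KO lines, beside the same 10.6% of all genes, with a median of -0.36. The part of these shifts in the changes of the Sertoli markers was not tested.

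The partners and receptors of the members' ligands were followed from a list of 15 genes. In the mean of both KO lines 1 of the 11 tested rose and 3 fell, beside 8.64% and 10.6% of all genes. Gas1, a hedgehog co-receptor, rose by 1.15 ± 0.31 (adjusted p = 0.00431), with 9.71 to 14.9 RPM in KO and 6.26 and 4.49 RPM in WT. Boc, another hedgehog co-receptor, had 0, 3, 1 and 3 counts in the KO libraries and 19 and 21 counts in WT (adjusted p = 6.02e-05). It passed the filter on low counts only through WT libraries, where it is high. Nothing is therefore read from its test or from the number of genes that fell. Ptch1, the receptor of DHH and a target gene of the pathway, fell by 1.04 (SE 0.20, adjusted p = 2.62e-05), with 14.4 and 13.6 RPM in KO1, 15.7 and 17.5 RPM in KO2, and 24.0 and 36.6 RPM in WT. Acvr2b, an activin receptor, fell by 0.44 (SE 0.15, adjusted p = 0.0246). In all 6 GSC libraries Dhh itself had at most 1 count.

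Between E16 and E17 no member passed the threshold (0 of 8 by edgeR, with 2 of 8 at an unadjusted p under 0.05, and 0 of the 2, Clu and Aard, to which DESeq2 gave an adjusted p), where 6.6% of all 14776 genes did, 1.64% higher and 4.96% lower. Those at an unadjusted p under 0.05 were Clu, which averaged 90.3 RPM at E17 and 103.3 RPM at E16 (log2 fold change -0.53 ± 0.22, adjusted p = 0.165), and Inha, which averaged 22.7 RPM at E17 and 9.44 RPM at E16 (0.94 ± 0.40, adjusted p = 0.176). Clu passed without E16 replicate 1 (-0.49, adjusted p = 0.0324) and without E16 replicate 2 (-0.55, adjusted p = 0.0426). Dhh (-0.85 ± 0.60), Sox9 (-0.35 ± 0.59), Gata4 (-0.25 ± 0.51), Aard (0.28 ± 0.38), Wt1 (0.26 ± 0.55) and Cldn11 (0.11 ± 0.64) had standard errors that leave room for changes of a log2 unit. For Sox9 and Gata4 the mean RPM were slightly higher at E17, opposite to the sign of the fitted change, and the same held for Aard, lower in mean RPM at P7 than at E17.

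At P7, against E17, Clu and Inha fell and the other 6 tested members did not pass. The P7 tables have their own gene list, of 34896 genes against 35652 in the others. In every comparison with P7, the stage or setting cannot be told apart from any effect of that difference in counting. Clu averaged 32.2 RPM at P7 and 90.3 RPM at E17, a log2 fold change of -1.32 ± 0.23 (edgeR, adjusted p = 0.000157), and Inha averaged 6.63 RPM at P7 and 22.7 RPM at E17 (-1.61 ± 0.40, adjusted p = 0.0025). Both calls held without each library in turn (adjusted p at most 0.00471 for Clu and 0.0387 for Inha). Of all genes, 67.9% were called, 37.8% lower and 30.2% higher, so 2 of 8 members lower and 0 higher is not above the background. Dhh (-0.89 ± 0.65) and Gata4 (-0.88 ± 0.53) were lower and Sox9 (0.93 ± 0.54) higher at P7 in both libraries without passing. Cldn11 (-0.37 ± 0.63), Wt1 (0.21 ± 0.50) and Aard (0.12 ± 0.35) overlapped between the stages. The median was -0.62 over the 8 members and -0.13 over all tested genes. Dhh, Gata4 and Cldn11 passed the filter on low counts only through fetal libraries, where their means are higher. Nothing is therefore read from this median.

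**Figure D5:**
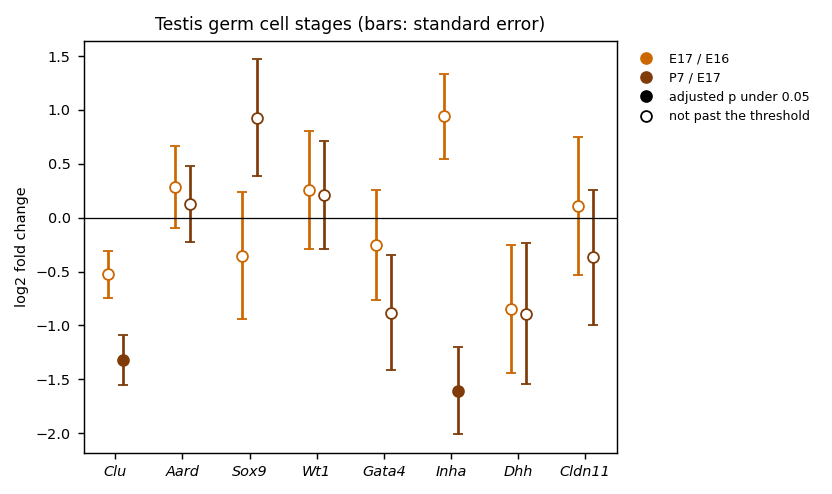
Log2 fold change (y axis) of the 8 members tested, E17 against E16 and P7 against E17; bars are standard errors and filled points passed an adjusted p of 0.05. The filled points are Clu and Inha in P7 against E17, both below 0.

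Over the same interval 9 of 16 other Sertoli genes tested fell, beside 37.8% of all genes, with a median of -1.74. Several of them, such as Ptgds, Gdnf, Vnn1 and Nr5a1, passed the filter on low counts only through fetal libraries, where they are high. Nothing is therefore read from this count or this median. Ptgds, a prostaglandin synthase, had 0 and 2 counts at P7 and 54 and 57 counts at E17. Gdnf, the growth factor for spermatogonial stem cells, had 1 and 0 counts at P7 and 9 and 30 counts at E17. Tsx, a gene of Sertoli cells on the X chromosome, had 3.95 and 5.26 RPM at P7 and 49.1 and 46.1 RPM at E17 (log2 fold change -3.19 ± 0.35, adjusted p = 1.77e-06). Log2 fold changes were -3.34 for Vnn1, -2.41 for Nr5a1 and -1.97 for Cst12 (adjusted p = 0.00161, 0.0170 and 0.000366). All 5 of the peritubular myoid genes tested and 2 of 3 Leydig cell genes fell as well, among them Des (-4.28) and Cyp11a1 (-4.77), whereas 1 of 5 erythroid genes did (Alas2, -6.65). Des, Cyp11a1 and Alas2 also passed the filter only through fetal libraries, so the same limit holds for these counts. The part of other somatic cells in the fall of Clu and Inha was not tested.

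Single receptors changed in either direction, with 4 of 14 tested lower and 4 higher at P7, no more than the 37.8% and 30.2% of all genes. Amhr2, the receptor of AMH, fell by 1.92 on the log2 scale (adjusted p = 0.00247), with 3.29 and 5.56 RPM at P7 and 17.3 and 20.4 RPM at E17. The hedgehog targets Gli1 (-2.84) and Hhip (-2.56) and the co-receptor Boc (-2.18) fell. Amhr2, Gli1, Hhip and Boc passed the filter on low counts only through fetal libraries, where they are high. Nothing is therefore read from the number of genes lower or from tests of these 4 genes. Ptch1 rose by 1.25 ± 0.22 (adjusted p = 0.000155), with 118 and 95.2 RPM at P7 and 61.3 and 38.7 RPM at E17. Bmpr1a, a receptor that AMH uses, rose by 1.70, Acvr2b by 1.21 and Smo, the hedgehog signal transducer, by 0.89.

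Set against cultured WT GSCs, P7 germ cells had 5 members called higher and 1 lower of the 8 tested, where 31% of all 15827 genes were called, 16% higher and 15% lower. Gata4, Dhh and Cldn11 did not pass the filter on low counts in GSCs alone and entered through testis libraries, where they are high. Nothing is therefore read from these counts or from tests of these genes. Dhh was also below the filter with only P7 and WT libraries in the fit. Clu was higher by 4.21 ± 0.36 (adjusted p = 1.09e-11), Sox9 by 1.71 ± 0.54 (adjusted p = 0.0131) and Aard by 0.87 ± 0.33 (adjusted p = 0.0381), and Wt1 was lower by a log2 fold change of -1.13 ± 0.39 (adjusted p = 0.0243). Dhh, with 14 counts at P7 and 0 in WT GSCs, was at least 2.84-fold higher against a floor of 3 counts per library. Cldn11, with 25 and 3 counts, was 10.2 times as high (95% counting interval 3.11 to 52.8). Gata4 (1.72 ± 0.76, adjusted p = 0.0838) and Inha (0.18 ± 0.45, adjusted p = 0.819) did not pass. With each library left out in turn, Clu stayed at 3.69 to 4.54 and its call held. Aard ranged over 0.51 to 1.38, Sox9 over 1.39 to 2.11 and Wt1 over -1.44 to -0.93, and each lost its call in some of these fits. Gata4 passed with only P7 and WT libraries in the fit (1.72, adjusted p = 0.0442), with the same limit. Aard did not pass with DESeq2 (adjusted p = 0.0562), nor Aard (0.33, adjusted p = 0.531) and Sox9 (1.13, adjusted p = 0.140) with spike-in scaling.

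The mean of E16 and E17 against WT GSCs gave 5 members higher and 1 lower of 8, beside 74.2% of all genes called, 41.9% higher and 32.3% lower, and the same limit holds for Gata4, Dhh and Cldn11. Clu was higher by 5.78 ± 0.31 (adjusted p = 1.07e-18), with 4 of 4 fetal libraries above both WT libraries, and Inha by 1.30 ± 0.38 (adjusted p = 0.00244). Gata4 was at 2.71 ± 0.67. Dhh, with 49 counts in fetal libraries and 0 in WT, was at least 7.26-fold higher, and Cldn11, with 41 and 3 counts, was 12.4 times as high (95% counting interval 3.95 to 62.4). Wt1 was lower at -1.49 ± 0.35 (adjusted p = 0.000319), a direction that turned to 1.13 when libraries were scaled to their ERCC spike-ins, where the median of all genes was 2.87. Aard (0.58 ± 0.30, adjusted p = 0.0816) and Sox9 (0.94 ± 0.52, adjusted p = 0.102) did not pass. Aard passed without WT replicate 2 (1.07, adjusted p = 0.0216) or E16 replicate 2 (0.73, adjusted p = 0.0131) and with DESeq2 (0.79, adjusted p = 0.0276), and Inha did not without WT replicate 2 (0.98, adjusted p = 0.0666). Of the other Sertoli genes at 0 in GSCs, Cst12 was at least 42.7-fold higher, Ptgds at least 42.2-fold and Defb19 at least 23.2-fold.

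The spike-in share of all counts was 0.194% to 1.52% in fetal libraries, 4.69% to 5.85% at P7 and 2.80% to 3.41% in GSCs. With libraries scaled to spike-ins, the median log2 fold change of all genes was 3.02 in E17 against E16, -4.81 in P7 against E17 and -0.42 in P7 against WT GSCs, beside 0.0054, -0.13 and 0.03 with TMM, and the directions given here for testis libraries are relative to the bulk of genes. Relative to the spike-in medians Clu was at -0.55 in E17 against E16 and at -1.15 in P7 against E17, and Inha at 0.93 and -1.43. Between KO1 and WT GSCs and between KO2 and WT GSCs the spike-in median was -0.09 and 0.07.

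The genes whose pattern was most like the summed level of the members over the 12 libraries were Atg3, Dalrd3, Mpdz, Neb and Cd47, by Pearson's r of log2(RPM + 1) among 9476 genes with at least 20 RPM in a group. Their r was 0.975, 0.970, 0.966, 0.964 and 0.964, as a description over libraries that share culture, stage and depth. Neb had the widest range of the 5 as a ratio of group means, with 49.96 RPM at E16, 64.6 RPM at E17, 26.7 RPM at P7, 6.34 RPM in KO1, 4.81 RPM in KO2 and 2.45 RPM in WT. Of the members themselves, Clu had an r of 0.98 with the sum that includes it, Dhh 0.96, Gata4 0.89, Cldn11 0.87 and Inha 0.79, whereas Sox9 had 0.37, Aard 0.13 and Wt1 -0.52. Sox9, Aard and Wt1 are also the members with their highest mean in a GSC group.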

How the data were processed

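RNA of 12 libraries was reverse transcribed from 1 ng and amplified, per the labels' protocols. The submitters' processing notes name build GRCm38.p6 and the tools Salmon 1.4.0, HTSeq 0.9.1, TopHat2 2.1.1 and cutadapt 1.18, without roles or a strand setting. The authors deposited whole read counts per gene, which every test used. Another deposited column, of values the authors scaled to reads per 1000000 (RPM) without mitochondrial genes, was only checked against RPM computed from the counts. Replicate numbers follow the sample titles, and for WT GSCs the deposited tables' own numbers run opposite.

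The gene lists of the P7 tables (34896 genes) and of the others (35652) were joined by Entrez ID, and 31675 genes with no blank cell entered joint fits. edgeR 4.0.16 (R 4.3.3; quasi-likelihood test, TMM, filterByExpr by group, Benjamini-Hochberg adjusted p under 0.05) was fitted to the 6 GSC libraries, to the 6 testis libraries, and to all 12 for testis against WT GSCs; SE is the log2 fold change over the square root of F. The fits were tested on simulated data. Libraries of a group differed by more than sampling noise. Alternatives were DESeq2 1.42.0, ERCC spike-in scaling, no filter, other samples in the fit, a replicate block and leaving out each library. The members and lists were chosen with earlier results of these data known. All members are named; genes of other lists are named where past the threshold with libraries that do not overlap, up to 6 per list and comparison, and a few more (Trf, Fgf9 and genes given by counts only) were chosen after their values were seen. Promoters came from RefSeq. The results of 1 gene of the second Sertoli list are not reported here.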

Additional observations from a re-analysis of the deposited data

How the results depend on the processing

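Counts of members called stayed within 1.5 times the main count except as follows. Spike-in scaling called 8 of 8 members in E17 against E16 and 8 of 8 in P7 against E17, the replicate block called 1 (Wt1) in KO1 against KO2, and leaving out 1 library gave 1 to 3 in KO1 against WT, 1 to 2 in KO2 against WT, 0 to 1 in KO1 against KO2, 0 to 1 in E17 against E16 and 2 to 7 in P7 against WT. No filter on low counts changed the side of no member. Same-numbered libraries did not deviate together (correlations -0.051 to 0.0586), so the numbers pair nothing; with the replicate block Wt1 in KO1 against KO2 was at 1.23 (adjusted p = 0.0469), and no other member call changed.

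Among all genes, calls were 2286 in the mean of both KO lines against WT (1083 with DESeq2, 1447 with spike-in scaling, 1421 with 12 libraries in the fit), 1622 in KO1 (679 with DESeq2, 858 with 12 libraries, 859 to 1779 leaving out 1 library), 1860 in KO2 (864, 1191 with spike-in scaling, 1008 with 12 libraries, 905 to 1869) and 99 in KO1 against KO2 (35, 39 with 12 libraries, 41 to 45). E17 against E16 gave 975 (14508 with spike-in scaling, 1763 with 12 libraries, 232 to 3645), and P7 against WT GSCs 4909 (3200 to 3684). Spike-in scaling moved the share of calls that were higher to 25.9% against 45.7% for KO1, 58.4% against 46.0% for KO2, 37.0% against 65.7% for KO1 against KO2, 100% against 24.8% for E17 against E16, 0.255% against 44.4% for P7 against E17, 16.2% against 51.7% for P7 against WT and 98.9% against 56.5% for the fetal mean; with 12 libraries it was 31.5% against 44.9% for the KO mean, 30.4% for KO1, and 82.1% for KO1 against KO2, where DESeq2 gave 82.9%.

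With spike-in scaling E17 against E16 turned to 2.47 for Clu, 2.68 for Sox9, 2.78 for Gata4 and 2.14 for Dhh, P7 against E17 to -4.55 for Aard, -3.75 for Sox9 and -4.44 for Wt1, Inha to 0.0073 in KO2 and -0.34 in P7 against WT, and Wt1 to 1.13 in the fetal mean, all beside the spike-in medians given above. Uncalled members also changed sign as libraries were left out: Inha ranged over -0.47 to 0.20 in the KO mean, -0.64 to 0.10 in KO1, -0.38 to 0.30 in KO2, -0.59 to 0.14 in KO1 against KO2 and -0.38 to 0.54 in P7 against WT; Wt1 over -0.44 to 0.0416 in KO1 and -0.0457 to 0.47 in P7 against E17; Aard over -0.0457 to 0.49 in KO1 against KO2, -0.11 to 0.74 in E17 against E16 and -0.18 to 0.42 in P7 against E17; Gata4 over -0.63 to 0.0631 and Cldn11 over -0.39 to 0.46 in E17 against E16; and Cldn11 over -0.77 to 0.15 in P7 against E17. The cause was not tested. With mitochondrial genes in the total, the summed level was 57.0 RPM in KO1, 41.1 RPM in KO2, 31.5 RPM in WT and 146 RPM in E17.

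Depth limits what can be said of Gata4, Dhh and Cldn11 in GSCs, where a change could not be tested, and 2 libraries a group limit all tests. For Amh, at 0 in testis libraries too, it is also not known whether its 3' end was counted.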
